A study of Mus musculus with 18 samples.

Results

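The 10 genes described here belong to Bruch's membrane, to its turnover and to inherited macular disease. They were followed in the retinal pigment epithelium (RPE) of mice labeled *rd1*, in eyes that overexpressed Nrf2 and in their fellow eyes. They were taken by name and not by their values: the protease inhibitor *Timp3*, the proteases *Htra1* and *Mmp14*, the fibulin genes *Efemp1* and *Fbln5*, the elastin gene *Eln*, the cross-linking enzymes *Lox* and *Loxl1*, and the RPE genes *C1qtnf5* and *Mfrp*. All 10 were among the 47729 genes of the deposited table and all 10 passed the filter on low counts, which left 18958 genes. The *rd1* mice (FVB/N) carry a loss-of-function mutation in *Pde6b* and lose their rods early in life, and the labels give this strain for the eyes of both groups. At P40, 9 mice gave 18 libraries, 1 from each eye. The labels name *rd1* as the source of all of them and were followed here, although the study's methods count fewer *rd1* pairs than this at P40, beside pairs of CD1 mice, which are wild type, at the same age. The strain of each library was not tested here, so whether CD1 mice are among the 9 is not known. One eye of each mouse had received AAV-Best1-Nrf2, in which the human Best1 promoter drives the human Nrf2 cDNA in the RPE, mixed with AAV-Best1-GFP (group Best1-Nrf2). The other eye had received AAV-Best1-GFP without the Nrf2 vector (group control), so that both groups carried GFP and neither was without virus. The libraries came from eyecups after the retina had been removed, not from sorted cells. In such samples, fewer cells of a type and less RNA per cell cannot be told apart.

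Bruch's membrane is the layered matrix between the RPE and the capillaries of the choroid, and it is made and turned over from both sides. It has a central elastic layer between collagen layers, with the basement membrane of the RPE on 1 face and that of the capillaries on the other. Elastic fibers form when elastin is deposited on microfibrils with the help of fibulins and is then cross-linked by lysyl oxidases. Metalloproteinases and serine proteases remodel the matrix, and TIMP3, which binds to it, inhibits metalloproteinases. Mutations in the human counterparts of *Timp3*, *Efemp1* and *C1qtnf5* cause dominant diseases with deposits under the RPE (Sorsby fundus dystrophy, Doyne honeycomb dystrophy and late-onset retinal degeneration), and the region of *HTRA1* is linked to age-related macular degeneration.

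Library totals ranged from 18956748 to 44054836 counts in control eyes and from 32839893 to 49598700 in Best1-Nrf2 eyes, with the smallest in control mouse 8. *Nfe2l2*, the mouse gene for Nrf2, ranged from 76.7 to 133.8 CPM (CPM are counts scaled to the TMM-adjusted library size) in control eyes and from 275 to 704 CPM in Best1-Nrf2 eyes. The ranges did not overlap, as the labels imply, and 9 of 9 mice had more of it in the Best1-Nrf2 eye (log2 fold change in edgeR's quasi-likelihood test, 2.29, SE 0.21, adjusted p = 6.21e-05). Counts per gene cannot separate the human cDNA from the mouse transcript. RPE markers were abundant in control eyes (*Rpe65*, 2021 ± 846.3 CPM; *Rlbp1*, 2368 ± 975 CPM; SD, n = 9), but mouse *Best1* was at 1.46 ± 0.519 CPM. Markers of other cells moved with the groups. Of 18 RPE markers, 13 had a log2 fold change below 0 and 5 above. The mean log2 level of the 18 was lower with Best1-Nrf2 in 8 of 9 mice (mean difference, -0.51 log2 units; control, 7.99 to 9.77; Best1-Nrf2, 8.38 to 9.09). That of 13 photoreceptor markers was lower in 9 of 9 (-3.07; control, 3.24 to 5.25; Best1-Nrf2, 0.18 to 3.03), that of 10 fibroblast and scleral markers was higher in 9 of 9 (0.81; control, 3.29 to 4.73; Best1-Nrf2, 4.17 to 5.32), and that of 12 macrophage and microglia markers was higher in 9 of 9 (1.18; control, 2.59 to 3.64; Best1-Nrf2, 2.73 to 4.83). The 2-sided exact sign-flip permutation p, adjusted over 9 marker lists, was 0.044 for the RPE list and 0.012 for each of the other 3, and no marker tested was at 0 in every library. The other 5 lists (smooth muscle and pericyte, endothelial, Müller glia, melanocyte and Schwann cell, and red blood cell) had adjusted p from 0.21 to 0.95. The part of these cells in the results that follow was not tested beyond the fits that take a marker level as a covariate.

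Of the 10 genes, 1 passed an adjusted p of 0.05 (10%), where 4.25% of all genes tested did. This was *Timp3*, which fell, and 1.13% of all genes fell. No member rose in edgeR, against 3.12% of all genes; 1, *Htra1*, was higher at an unadjusted p under 0.05 and was called by DESeq2. At an unadjusted p under 0.05 there were 3 of the 10 (*Timp3*, *Htra1* and *Fbln5*), with 12.8% of all genes. The median log2 fold change of the 10 was -0.12, and that of all genes was -0.025.

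**Figure D1:**
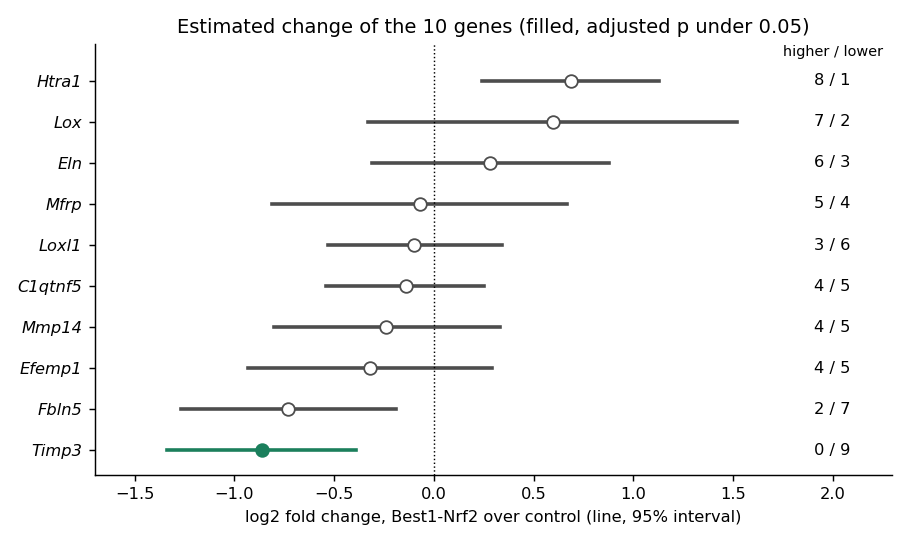
Estimated log2 fold change (Best1-Nrf2 over control) of each gene with its 95% interval from the paired edgeR fit; the numbers at the right count the mice in which the Best1-Nrf2 eye was higher and lower. The interval lies apart from 0 for *Htra1*, *Fbln5* and *Timp3*, and of these *Timp3* has the filled point, with an adjusted p of 0.0473.

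*Timp3* codes for the metalloproteinase inhibitor that stays bound to Bruch's membrane (ENSMUSG00000020044, GRCm38 chr10:86300372-86349506, plus strand, protein coding). Control eyes ranged from 588.6 to 5197 CPM with a median of 2417, and Best1-Nrf2 eyes ranged from 467 to 2014 CPM with a median of 1309. The groups overlapped, and 1 Best1-Nrf2 eye lay below every control eye (mouse 8). Within each mouse, the Best1-Nrf2 eye was the lower one in 9 of 9, by 0.3 log2 units in mouse 7 and by up to 1.9 in mouse 6. The mean went from 2418 ± 1456 to 1216 ± 497.3 CPM (SD, n = 9). The log2 fold change was -0.86 (SE 0.22, 95% interval -1.34 to -0.39, adjusted p = 0.0473), which is 0.549 of the control level.

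That call was close to the threshold, and it was lost in 14 of 20 other fits, with a lower level in each. The adjusted p was 0.197 without the mouse as a block (log2 fold change -0.99) and 0.0704 without the filter on low counts. With the RPE markers as a covariate, the estimate was -0.47 (adjusted p = 0.484). It was -1.31 (adjusted p = 0.22) with the photoreceptor markers and -1.14 (adjusted p = 1.0) with the fibroblast markers. Among all 18958 genes, the photoreceptor fit called 11 higher and 2 lower, and the fibroblast fit called 0. A lost call in these fits therefore says little about *Timp3*. Leaving out a single mouse ended the call for mice 1 (adjusted p = 0.156), 2 (0.0872), 3 (0.0913), 4 (0.12), 5 (0.0756), 6 (0.0601), 7 (0.0797) and 9 (0.14), and leaving out mouse 8 did not (0.0464). DESeq2 gave -0.87 (adjusted p = 0.000732). *Syn3*, on the opposite strand, covers 21.3% of the exon bases of *Timp3*, and the kit does not mark the strand. *Syn3* itself was low, at 3.77 ± 2.26 CPM in the control group and 2.7 ± 1.25 CPM in the Best1-Nrf2 group (SD, n = 9), and the median ratio of *Timp3* to *Syn3* counts was 701 and 537.

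The stretch just before the annotated start of *Timp3* is printed because it belongs to the gene that passed the test. It is GRCm38.p6 chr10:86300162-86300371 on the plus strand, from the RefSeq promoter table.
Timp3: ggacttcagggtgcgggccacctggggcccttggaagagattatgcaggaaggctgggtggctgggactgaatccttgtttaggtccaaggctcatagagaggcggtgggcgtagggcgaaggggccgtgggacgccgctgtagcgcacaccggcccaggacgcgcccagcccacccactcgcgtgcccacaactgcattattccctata
Within the 250 bases before the RefSeq start of each gene, 4 motifs were searched on both strands: TGACNNNGC, the core of the antioxidant response element to which Nrf2 binds with a small Maf partner (in 10.2% of 32851 windows of this length), TAATCC, the core bound by OTX factors (6.3%), the E-box CACGTG (6.0%) and the TATA box TATAAA (12.4%). None of these letters occurred in the window of *Timp3*, whose GC content was 65.6% (median of all windows, 52.4%).

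*Htra1* codes for a secreted serine protease that cleaves matrix proteins (ENSMUSG00000006205, chr7:130936111-130985660, plus strand, protein coding). It had levels from 50.2 to 238 CPM in control eyes (median 157.5) and from 127.5 to 410.2 CPM in Best1-Nrf2 eyes (median 244.3). The groups overlapped, but 8 of 9 mice had the higher level in the Best1-Nrf2 eye, and mouse 6 had the lower (127.5 CPM, against 192.2 CPM in its control eye). The means were 149.3 ± 55.6 and 234.2 ± 85.94 CPM (SD, n = 9). With a log2 fold change of 0.69 (SE 0.20, 95% interval 0.24 to 1.13), *Htra1* did not pass the test, at an adjusted p of 0.0992 in edgeR. It passed without mouse 6 (0.84, adjusted p = 0.00982) and in DESeq2 (0.68, adjusted p = 0.0213). With the photoreceptor markers as a covariate the estimate was 0.13 (adjusted p = 0.921), and with the RPE markers it was 1.12 (adjusted p = 0.0919).

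The window of *Htra1* held the 1 match to TGACNNNGC among the 7 genes with a RefSeq window (*Timp3*, *Efemp1*, *C1qtnf5*, *Mfrp*, *Htra1*, *Fbln5* and *Mmp14*). It is printed with 10 bases on each side, in capitals, and lies at chr7:130936135-130936143, which is 24 bases after the GENCODE start of the gene and 60 to 68 bases before the RefSeq start. The capitals are the reverse complement of the motif.
Htra1: tccccctggcGCTTCGTCAccgccgctag
A match of this kind is a description of the letters, which 10.2% of all windows hold.

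*Mmp14* codes for a membrane-bound metalloproteinase that activates MMP2 (ENSMUSG00000000957, chr14:54431612-54445364, plus strand, protein coding). Its level was between 43 and 139.7 CPM in control eyes (median 100.1) and between 29.7 and 135.9 CPM in Best1-Nrf2 eyes (median 85). The Best1-Nrf2 eye was higher in 4 mice and lower in 5. The widest gap was in mouse 6, which had the highest control eye and the lowest Best1-Nrf2 eye of all. On the log2 scale the fold change was -0.24 (SE 0.26, 95% interval -0.80 to 0.33, adjusted p = 0.823), and it was 0.06 without mice 6 and 8 and -1.86 (adjusted p = 0.0856) with the photoreceptor markers as a covariate.

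**Figure D2:**
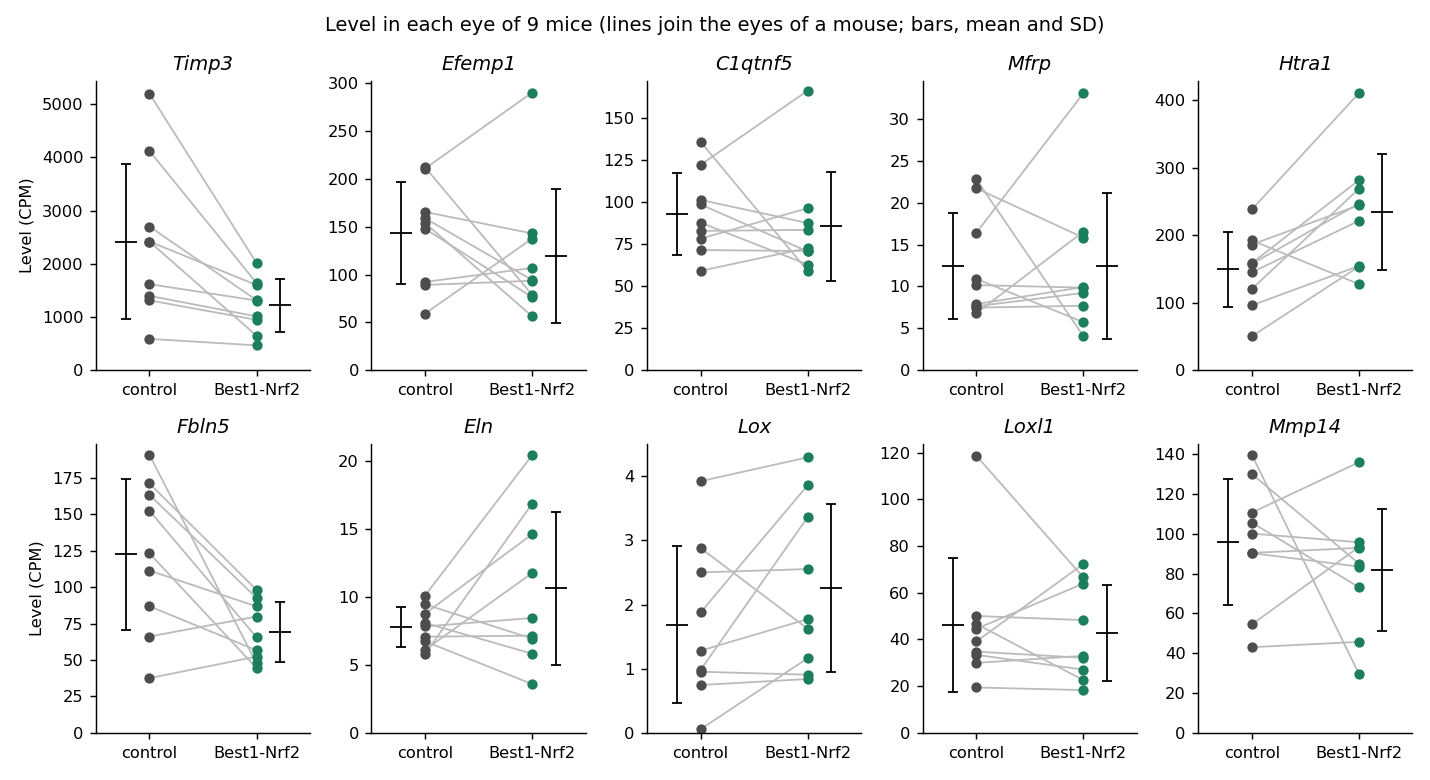
Level of each gene in CPM, from 0, in the control eye (grey) and the Best1-Nrf2 eye (green) of 9 mice; a line joins the eyes of a mouse and the bars give the mean and SD. All 9 lines go down for *Timp3* and 8 of 9 go up for *Htra1*, while the lines cross for *C1qtnf5*, *Mfrp* and *Mmp14*.

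Neither fibulin gene passed the test, and their estimates had the same sign. *Fbln5*, whose product guides elastin onto microfibrils (ENSMUSG00000021186, chr12:101746565-101819055, minus strand, protein coding), ranged from 37.6 to 190.6 CPM in control eyes (median 123.1) and from 44.4 to 98 CPM in Best1-Nrf2 eyes (median 65.5). The Best1-Nrf2 eyes lay within the control range, in its lower part. Of the 9 mice, 7 had the lower level in that eye, and mice 3 and 8 had the higher. The means were 122.4 ± 51.65 and 69.28 ± 20.4 CPM (SD, n = 9). Its log2 fold change of -0.73 (SE 0.25, 95% interval -1.27 to -0.19) had an adjusted p of 0.178 in edgeR. With the RPE markers as a covariate it was 0.07 (adjusted p = 0.901).

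*Efemp1*, the fibulin gene of Doyne honeycomb dystrophy (ENSMUSG00000020467, chr11:28853204-28926743, plus strand, protein coding), ranged from 59.2 to 212.3 CPM in control eyes (median 154) and from 56.4 to 290.5 CPM in Best1-Nrf2 eyes (median 94.3). The Best1-Nrf2 eye of mouse 8 held both the highest level of all eyes and a higher level than its control eye (211 CPM). The direction differed between mice, from 1.45 log2 units lower in mouse 6 to 1.22 higher in mouse 1, with 4 higher and 5 lower. The log2 fold change was -0.32 (SE 0.28, 95% interval -0.93 to 0.29, adjusted p = 0.748), an interval of 0.526 to 1.22 of the control level in this fit, and it was -1.25 (adjusted p = 0.313) with the photoreceptor markers as a covariate.

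None of *Eln*, *Lox* and *Loxl1* passed the test in edgeR or in DESeq2, and none had an unadjusted p under 0.05. *Eln*, the gene for the core of the elastic layer (ENSMUSG00000029675, chr5:134702593-134747323, minus strand, protein coding), ranged from 5.81 to 10.1 CPM in control eyes (median 7.82) and from 3.59 to 20.4 CPM in Best1-Nrf2 eyes (median 8.45). Control eyes were close together (coefficient of variation, 19%), whereas Best1-Nrf2 eyes were spread to both sides of them (53.1%). Of the Best1-Nrf2 eyes, 4 were above every control eye (mice 1, 2, 6 and 7) and 1 was below (mouse 8). The estimated log2 fold change was 0.28 (SE 0.27, 95% interval -0.31 to 0.88, adjusted p = 0.782), with 6 mice higher and 3 lower.

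*Lox*, a lysyl oxidase that starts the cross-links of elastin and collagen (ENSMUSG00000024529, chromosome 18, minus strand, protein coding), was near the lower end of detection. Control libraries held 1 to 141 counts of it, or 0.057 to 3.92 CPM (median 1.28), and Best1-Nrf2 libraries held 35 to 222, or 0.84 to 4.29 CPM (median 1.77). The count of 1 was in control mouse 8, which had the smallest library. The estimated log2 fold change was 0.60 (SE 0.42, 95% interval -0.33 to 1.52, adjusted p = 0.665), with 7 mice higher and 2 lower, and it was 0.34 without mouse 8.

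*Loxl1*, the lysyl oxidase tied to elastic fiber upkeep in the adult (ENSMUSG00000032334, chr9:58287738-58313186, minus strand, protein coding), ranged from 19.4 to 118.7 CPM in control eyes (median 39.1) and from 18.3 to 72.3 CPM in Best1-Nrf2 eyes (median 33). A single control eye stood above the rest (mouse 1, 118.7 CPM), and the next control eye was at 50 CPM. Between the groups the log2 fold change was -0.10 (SE 0.20, 95% interval -0.53 to 0.34, adjusted p = 0.925), which turned to 0.05 without mouse 1 and to 0.02 without mouse 5.

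*C1qtnf5* and *Mfrp* share a transcription unit in mouse and human. MFRP is a membrane protein of the RPE with a role in eye size, and C1QTNF5 is a short-chain collagen secreted by the RPE. In the annotation, *C1qtnf5* (ENSMUSG00000079592, chr9:44107245-44109187, plus strand, protein coding) lies at the downstream end of *Mfrp* (ENSMUSG00000034739, chr9:44101729-44109187, plus strand, protein coding), and all 1589 of its exon bases are also exon bases of *Mfrp*. In sequence, 90.2% of the 31-base words of *C1qtnf5* occur in *Mfrp*. Reads there cannot be assigned to 1 of the genes with certainty, so the counts of both are uncertain.

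RefSeq gives both genes the same window before the start, although their GENCODE starts are 5516 bases apart. The part before the *Mfrp* start is shown because it is the shared upstream sequence (GRCm38.p6 chr9:44101520-44101728, plus strand). Capitals mark the 1 motif found in it, the reverse complement of TAATCC, at 134 to 129 bases before the RefSeq start.
Mfrp and C1qtnf5: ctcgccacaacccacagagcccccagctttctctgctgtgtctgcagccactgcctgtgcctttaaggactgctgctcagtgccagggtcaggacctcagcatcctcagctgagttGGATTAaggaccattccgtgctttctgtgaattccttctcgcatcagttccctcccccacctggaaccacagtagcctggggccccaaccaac
The letters TAATCC are in 6.3% of all windows on 1 strand or the other.

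Neither gene of the pair passed the test. *C1qtnf5* ranged from 59.1 to 135.8 CPM in control eyes (median 87.7) and from 58.9 to 166.2 CPM in Best1-Nrf2 eyes (median 72.7). Its log2 fold change was -0.14 (SE 0.18, 95% interval -0.54 to 0.25, adjusted p = 0.853), with 4 mice higher and 5 lower. *Mfrp* ranged from 6.79 to 22.8 CPM in control eyes (median 10.2) and from 4.08 to 33 CPM in Best1-Nrf2 eyes (median 9.85), with a log2 fold change of -0.07 (SE 0.34, 95% interval -0.81 to 0.67, adjusted p = 0.971). Its sign depended on the animals included, with 0.04 without mouse 1, 0.04 without mouse 6, 0.19 without mouse 8 and 0.35 (adjusted p = 0.484) without mice 6 and 8. With the photoreceptor markers as a covariate it was -1.27 (adjusted p = 0.399). The highest level of both genes was in the same eye, that of Best1-Nrf2 mouse 3. Counts of *C1qtnf5* were 2.59 to 18.2 times those of *Mfrp* in control libraries (median 8.63) and 4.27 to 17.8 times in Best1-Nrf2 libraries (median 7.65). With group means removed, the log2 levels of the genes had r = 0.14 over the 18 libraries.

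Levels of different genes were compared per kilobase of exon, in control eyes. *Timp3* was first with a median of 297 CPM per kilobase, a level above that of 99.3% of the genes tested. *Efemp1* (75.6), *C1qtnf5* (55.2) and *Htra1* (54.7) came next, then *Fbln5* (17.8), *Mmp14* (16.8) and *Loxl1* (11.9). *Mfrp* (2.34), *Eln* (0.966) and *Lox* (0.268) were the lowest. The places of *C1qtnf5* and *Mfrp* rest on their uncertain counts, as given above, and so do the comparisons with their neighbors. The within-library log2 difference between neighbors in this order was tested by a 2-sided exact sign-flip permutation test, adjusted over 9 pairs. It passed for 5 pairs (adjusted p = 0.012 to 0.014): *Timp3* over *Efemp1*, *Htra1* over *Fbln5*, *Loxl1* over *Mfrp*, *Mfrp* over *Eln* and *Eln* over *Lox*. It did not pass for *Efemp1* over *C1qtnf5* (0.2 ± 0.75 log2 units, SD, adjusted p = 0.51), *C1qtnf5* over *Htra1* (0.25 ± 0.71, adjusted p = 0.49), *Fbln5* over *Mmp14* (0.07 ± 0.75, adjusted p = 0.78) or *Mmp14* over *Loxl1* (0.29 ± 0.96, adjusted p = 0.49). Per longest transcript in place of all exon bases, the medians of *Mfrp* and *Eln* were 2.35 and 2.03, and *Mfrp* over *Eln* did not pass (adjusted p = 0.17). In that order *Mmp14* stood above *Fbln5*, and the pair passed (0.56 log2 units, adjusted p = 0.028). In Best1-Nrf2 eyes, the medians per kilobase of exon were 161 CPM per kilobase for *Timp3* and 84.9 for *Htra1*, against 46.3 for *Efemp1* and 45.7 for *C1qtnf5*.

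**Figure D3:**
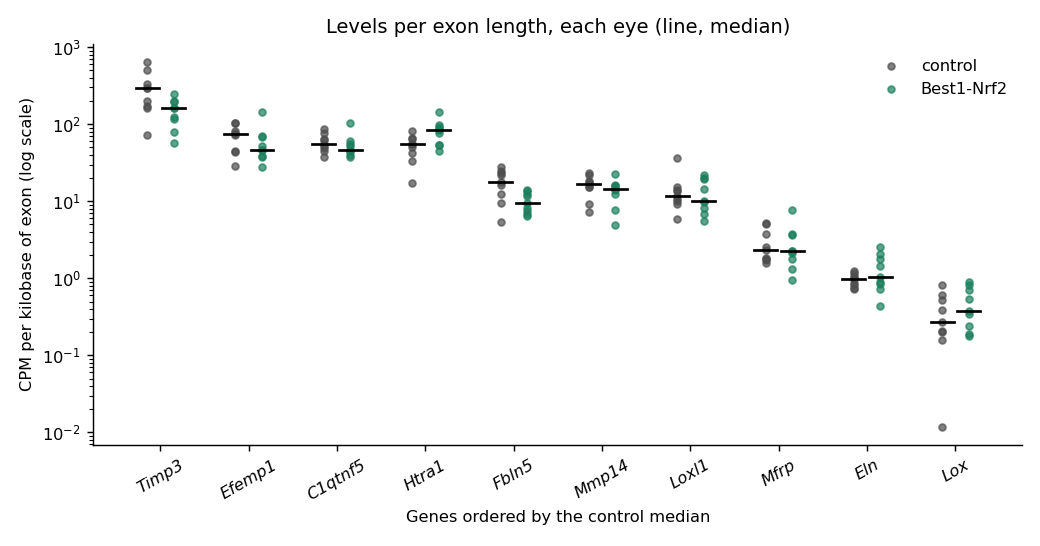
Level in CPM per kilobase of exon (log axis) in each eye, with the median as a line, for control (grey) and Best1-Nrf2 (green). Counts of *C1qtnf5* and *Mfrp* are uncertain because their exons overlap. The genes form steps from *Timp3* at 297 to *Lox* at 0.268 CPM per kilobase in control eyes, with *Efemp1*, *C1qtnf5* and *Htra1* on 1 step and *Fbln5*, *Mmp14* and *Loxl1* on the next.

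The other genes of the same matrix and disease pathways were read from lists that share some of the 10 genes. Of 27 elastic fiber and microfibril genes, none passed in edgeR (median log2 fold change, 0.10), and 4 had an unadjusted p under 0.05, where 12.8% of all genes did. DESeq2 called 2 of the 27 and 7.8% of all genes. Without mouse 6, edgeR called 1 of the 27 and 5.53% of all genes. Of 25 basement membrane genes, 1 fell: *Col4a4*, a chain of type IV collagen, from 119.4 ± 40.19 CPM to 70.44 ± 16.45 CPM with Best1-Nrf2 (log2 fold change -0.73, adjusted p = 0.0267). The Best1-Nrf2 eye was the lower one in 9 of 9 mice, with differences from -1.3 log2 units in mouse 3 to -0.0 in mouse 4. The median of the list was 0.12. The share called was 4.0%, near the 4.25% of all genes. This call was lost without mouse 1, 3, 5, 8 or 9 (adjusted p = 0.062 to 0.0981).

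Of 26 metalloproteinases and their inhibitors tested, 2 rose and 1, *Timp3*, fell (11.5% called, against 4.25% of all genes; median 0.23). *Mmp9*, a gelatinase also made by leukocytes, ranged from 0 to 2 CPM in control eyes and from 2.95 to 13.9 CPM in Best1-Nrf2 eyes, without overlap (log2 fold change 4.99, SE 0.94, adjusted p = 0.00866). *Mmp2*, the other gelatinase and the enzyme that MMP14 activates, ranged from 1.77 to 11 CPM in control eyes and from 6.21 to 16.2 CPM in Best1-Nrf2 eyes (log2 fold change 1.09, SE 0.23, adjusted p = 0.0157). Both were above the fellow eye in 9 of 9 mice. For *Mmp2*, the adjusted p was 0.0518 without mouse 7 and 0.0511 without mouse 9, and without the mouse as a block it was 0.106 (log2 fold change 0.94). With the fibroblast markers as a covariate, the estimate for *Mmp2* was 0.09 (adjusted p = 1.0) and that for *Mmp9* was 8.35 (adjusted p = 0.49). *Mmp9* was at 2.85 (adjusted p = 0.234) with the RPE markers and at 6.07 (adjusted p = 0.226) with the photoreceptor markers. Macrophage and fibroblast marker levels rose in the same eyes, as given above.

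Of 15 secreted serine proteases and serpins, 1 rose (6.67%, where 3.12% of all genes rose and 4.25% were called; median 0.33). This was *Serpine2*, a protease inhibitor of the matrix, which went from 47.06 ± 17.24 CPM to 105.2 ± 45.34 CPM (log2 fold change 1.15, adjusted p = 0.0129, 9 of 9 mice). Without mouse 6, 4 of the 15 passed, in a fit that called 5.53% of all genes. In a list of 19 genes of TGF-beta signaling and its targets (10.5% called, against 4.25% of all genes; median 0.16), *Ccn2*, a matricellular growth factor, rose (0.96, adjusted p = 0.0187, higher in 8 of 9 mice) and *Bmp4*, a signaling ligand made by the RPE, fell (-1.0, adjusted p = 0.0154, lower in 9 of 9 mice). The call for *Ccn2* was lost without mouse 4, 5, 7 or 9 (adjusted p = 0.0519 to 0.0633) and that for *Bmp4* without mouse 1 or 3 (0.0518 and 0.0546) and without the mouse as a block (-1.06, adjusted p = 0.0903). With the photoreceptor markers as a covariate, *Bmp4* was at 0.00. Of 6 genes of eye size, which include *Mfrp*, none passed in edgeR (2 had an unadjusted p under 0.05, where 12.8% of all genes did, and 2 passed in DESeq2 and without mouse 6, which called 7.8% and 5.53% of all genes).

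The list of macular and RPE dystrophy genes had the most calls of the disease lists. Of 17 genes, 6 fell and none rose (35.3%, median -0.51), where 1.13% of all genes fell (4.25% called in either direction, median -0.025). *Impg1* (-4.80, adjusted p = 0.00214) and *Impg2* (-3.36, adjusted p = 0.0337) code for proteoglycans of the matrix around photoreceptors, and *Prph2* (-4.65, adjusted p = 0.0301) codes for a structural protein of photoreceptor outer segments. *Rlbp1* (-1.16, adjusted p = 0.00951) codes for a retinoid carrier of the RPE, and *Timp3* and 1 more gene made up the rest. The genes of deposits under the RPE other than *Timp3*, which are *Efemp1* and *C1qtnf5*, were not among the 6. With the photoreceptor markers as a covariate, none of the 17 passed, in a fit that called 11 genes higher and 2 lower among all 18958. The estimates there were 0.60 for *Prph2* (adjusted p = 0.883), -0.15 for *Rlbp1*, -0.99 for *Impg2*, -1.22 for *Impg1* and -1.31 for *Timp3*. Without the mouse as a block, *Impg2* was at -1.78 (adjusted p = 0.543) and 5 genes of the list passed. The count was 2 without mouse 1, 2, 4, 5 or 7 and 3 without mouse 3 or 9. Beside these, 17 of 18 established Nrf2 targets rose (median 2.37, from *Gstm1* at 6.26, *Srxn1* at 5.56, *Gclc* at 4.72 and *Hmox1* at 4.50 log2 units).

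**Figure D4:**
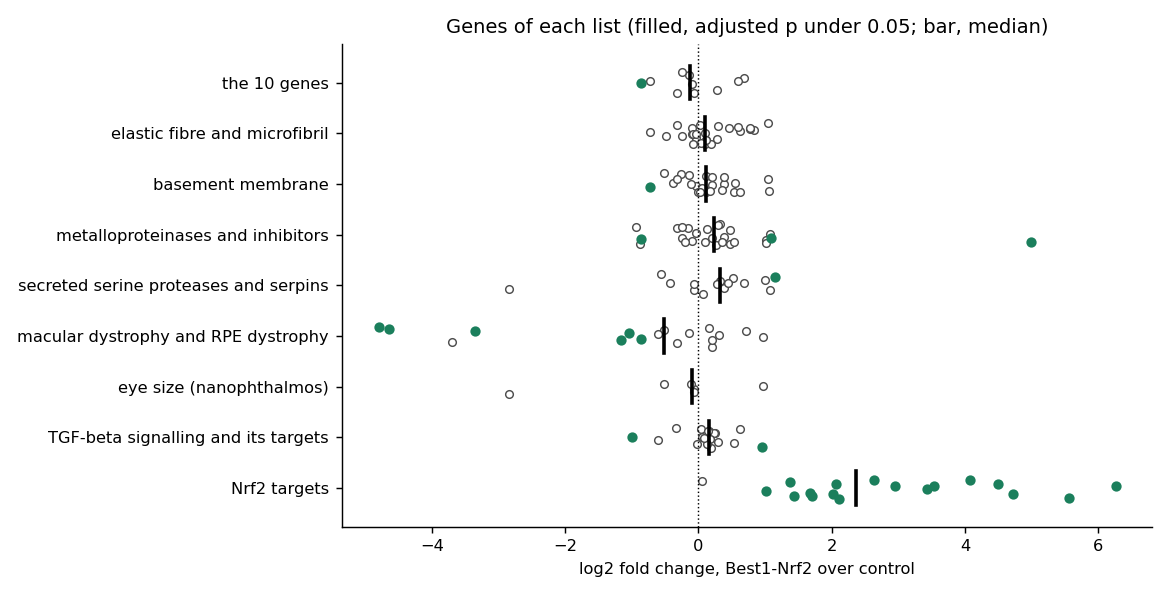
Log2 fold change (Best1-Nrf2 over control) of every tested gene of each list, with points filled where the adjusted p was under 0.05 and a bar at the median. The medians of the matrix lists lie from 0.10 to 0.33, that of the macular and RPE dystrophy list is at -0.51, and 17 of the 18 Nrf2 targets are filled and to the right.

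The difference between the eyes of a mouse varied least for *C1qtnf5* (SD 0.52 log2 units over 9 mice) and *Timp3* (0.56) and most for *Mfrp* (1.11) and *Lox* (1.26). Mouse 3 had 8 of the 10 genes higher in the Best1-Nrf2 eye, and mouse 4 had 7 lower; in the other mice, 4 or 5 were higher. The difference of each gene was set against the differences in *Nfe2l2* and in 5 marker levels, which makes 60 relations over 9 mice, with 2-sided exact permutation tests. At an unadjusted p under 0.05 there were 9, and none passed after adjustment over the 60 (smallest adjusted p, 0.0847). This one was *Fbln5* with the RPE markers (Pearson r = 0.86, exact permutation p = 0.00141; Spearman rho = 0.80, exact permutation p = 0.0138; r = 0.71 without the 2 mice farthest from the median). With the RPE markers, *Timp3* had r = 0.6 (exact permutation p = 0.0804; rho = 0.68, exact permutation p = 0.0503) and *Htra1* had r = 0.63 (exact permutation p = 0.0831; rho = 0.68, exact permutation p = 0.0503), which became 0.48 and 0.34 without mice 3 and 8. With the smooth muscle and pericyte markers, r was 0.71 for *Timp3* (exact permutation p = 0.0349, adjusted p = 0.262; rho = 0.58, exact permutation p = 0.108) and 0.73 for *Htra1* (exact permutation p = 0.00702, adjusted p = 0.14; rho = 0.72, exact permutation p = 0.0369), and 0.37 and 0.59 without mice 1 and 6. Of the relations to *Nfe2l2*, that of *Mfrp* had the smallest p (r = 0.75, exact permutation p = 0.0244, adjusted p = 0.262; rho = 0.58, exact permutation p = 0.108), with r = 0.44 without mice 4 and 8. For *Timp3* and *Htra1*, the value with *Nfe2l2* depended on whether mice 4 and 8, those farthest from the median, were included. For *Timp3*, r was 0.09 (exact permutation p = 0.819; rho = 0.23, exact permutation p = 0.552) over all mice and 0.79 without these 2. For *Htra1*, it was -0.07 (exact permutation p = 0.85; rho = 0.25, exact permutation p = 0.521) and 0.73 without them. *Eln* had r = -0.71 with the RPE markers (exact permutation p = 0.0284, adjusted p = 0.262; rho = -0.72, exact permutation p = 0.0369), and -0.38 without mice 3 and 8. With the smooth muscle and pericyte markers it had r = -0.74 (exact permutation p = 0.0312, adjusted p = 0.262; rho = -0.62, exact permutation p = 0.0857), and -0.65 without mice 1 and 6. *Lox* with the macrophage markers had r = 0.81 (exact permutation p = 0.00582, adjusted p = 0.14; rho = 0.85, exact permutation p = 0.00607), and 0.58 without mice 4 and 8. *Mmp14* with the photoreceptor markers had r = -0.82 (exact permutation p = 0.019, adjusted p = 0.262; rho = -0.67, exact permutation p = 0.0589), and -0.59 without mice 6 and 9.

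**Figure D5:**
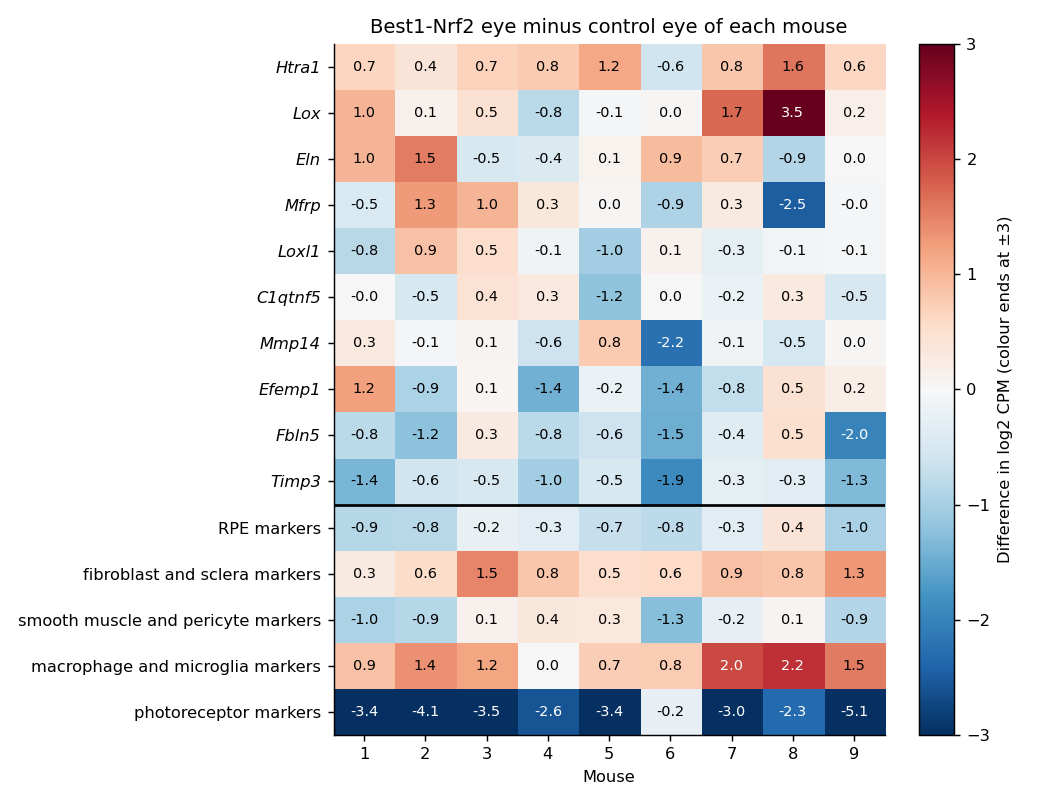
Difference in log2 CPM (Best1-Nrf2 eye minus control eye) for each of 9 mice, for the 10 genes (above the line) and for 5 marker lists as the mean log2 CPM of the list (below). The row of *Timp3* is below 0 in 9 of 9 mice and that of *Htra1* above 0 in 8 of 9, and the photoreceptor row is near 0 in mouse 6 alone.

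The genes most like each of the 10 were taken by Pearson r over the 18 libraries in log2 CPM, with the group means removed, as a description of libraries that share depth and cell mixture. *Timp3* was most like *Manea* and *Fads3* (both r = 0.99), whose own log2 fold changes were 0.05 and -0.34. *Htra1* was most like *Lipa* (r = 0.97) and *Tmem206* (0.96), and *Mmp14* was most like *Ajuba* (0.97). *Efemp1* was nearest to *Akr1c13* and *Acot9* (both 0.95), and *Fbln5* to *Mccc2* (0.94) and *Acadsb* (0.92). *Eln* was nearest to *Tek* (0.87) and *Cd200* (0.85), *Lox* to *Col5a1* and *Colgalt2* (both 0.88), and *Loxl1* to *Pdpn* (0.98) and *Fgfr1* (0.96). *C1qtnf5* was nearest to *1810059H22Rik* and *Rnf130* (both 0.90), and *Mfrp* to *Kpna6* (0.94) and *Asna1* (0.90). Among the 10 genes themselves, *Timp3* had r = 0.83 with *Fbln5* and 0.71 with *Htra1* and with *Loxl1*, and *Htra1* had r = 0.79 with *Fbln5*. *Efemp1* had r = -0.64 with *Loxl1*. The estimates of *Timp3* and *Htra1* between the eyes were of opposite sign (-0.86 and 0.69).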

How the data were processed

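Deposited for each of 18 libraries were expected counts per Ensembl gene, given as whole numbers without scaling. The authors aligned reads to mm10 with STAR and Ensembl transcripts and counted with featureCounts, and in parallel estimated transcripts with Salmon (0.8.1 in the submitters' processing notes) and tximport. Which counter made the table is not given in the sources used here, and the unit was read from the values. The RNA had been amplified, no molecular identifiers are described, and so counts carry counting error and amplification noise. The libraries were run in separate sequencing runs that the labels do not assign, so that the run could not be used.

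The 10 genes, the gene lists and the tests were chosen with earlier results of these data known. Genes were kept by filterByExpr with the groups given, libraries were scaled by TMM, and edgeR 4.0.16 (R 4.3.3) was fitted across all 18958 genes with mouse as a block; p-values were adjusted by Benjamini-Hochberg, with a threshold of 0.05. The kept genes held 99.87% of all counts. Log2 CPM used a prior count of 2. The eyes of a mouse are paired by the individual number in the labels; with group means removed, the median correlation between them was -0.00095 (-0.37 to 0.64), and no 2 libraries of a group agreed within sampling noise (chi-square per degree of freedom of at least 49.5 over 72 pairs). Per-mouse values were tested by exact sign-flip permutation (smallest p, 0.0039) and exact permutation of correlations in Python 3.11.15 with NumPy 2.4.6. Named are the 10 genes, *Nfe2l2*, at most 4 called genes of each list in each direction, and the 2 genes most like each of the 10 (mean log2 CPM, 2 or more); *Syn3*, *Rpe65* and *Best1* are named as checks. One gene that this rule selects is not reported here. Coordinates and exon lengths are from GENCODE mouse release 21 (GRCm38), promoter windows from RefSeq on GRCm38.p6. Symbols were matched for 47310 of 47729 IDs. The edgeR fit was run on simulated counts that held no differences between mice. The permutation tests and the covariate fits were not run on them. Alternatives were RLE and upper-quartile scaling, DESeq2 1.42.0, 2 other filters on low counts, no replicate block, 3 marker covariates, leaving out each mouse, leaving out mice 6 and 8, and, chosen after seeing the data, a filter by the paired design. No library was left out.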

Additional observations from a re-analysis of the deposited data

Results flagged for a closer look

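In 38 groups of 9 values (the log2 levels of the 10 genes and the levels of the 9 marker lists, in each group of eyes), 4 held a library whose gap to the next was wide for the range of its group by Dixon's test. Chance alone flags about 1 in 20 such groups, or 1.9 here. *C1qtnf5* was highest in the Best1-Nrf2 eye of mouse 3, at 7.38 log2 CPM (4311 counts), and the next eye was at 6.59. *Lox* was lowest in the control eye of mouse 8, at -3.18 log2 CPM from a count of 1, and the next eye was at -0.32. The RPE marker level was lowest in the same control eye of mouse 8, at 7.99, with the next at 9.14. The photoreceptor marker level was highest in the Best1-Nrf2 eye of mouse 6, at 3.03, with the next Best1-Nrf2 eye at 1.56. Without mice 6 and 8, *Timp3* had a log2 fold change of -0.80 (adjusted p = 0.0524 in edgeR) and *Htra1* of 0.73 (adjusted p = 0.0137).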

How the results depend on the processing

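The direction of *Timp3*, *Htra1*, *Efemp1* and *Lox* was kept in every alternative that tested the gene, and the cause of the changes below was not tested. The mice pair the eyes; without the replicate block, *Timp3* was not past the threshold (-0.99, adjusted p = 0.197), so that 0 of the 10 genes were called, *Mfrp* was at 0.00, and 1 gene each was called in the eye size and TGF-beta lists, 2 in the metalloproteinase list and 5 in the dystrophy list. The calls of *Mmp2* (0.94, adjusted p = 0.106), *Impg2* (-1.78, 0.543) and *Bmp4* (-1.06, 0.0903) were lost as well. Of the 10 genes, 0 were called without the count filter and with each of the 3 marker covariates, 2 in DESeq2, and 0 to 1 with 1 mouse left out. Among all genes, with the photoreceptor, fibroblast or RPE covariate, 11, 0 or 205 were higher and 2, 0 or 24 lower; DESeq2 called 940 and 538, and without mice 6 and 8, 366 were lower. With 1 mouse left out, 416 to 726 were higher and 116 to 320 lower. With the photoreceptor covariate 0 genes were called in the basement membrane, metalloproteinase, serine protease, dystrophy and TGF-beta lists, and 1 of the Nrf2 targets; with the fibroblast covariate 0 were called in all of these lists, the Nrf2 targets included, although *Gstm1*, *Srxn1*, *Gclc* and *Hmox1* were at 6.26, 5.83, 4.94 and 4.89 there and at 5.90, 4.12, 3.04 and 3.55 with the photoreceptor covariate; with the RPE covariate 0 were called in the basement membrane, metalloproteinase, dystrophy and TGF-beta lists. DESeq2 called 2 elastic fiber, 2 basement membrane, 6 metalloproteinase, 5 serine protease and 2 eye size genes, beside 7.8% of all genes. Without mice 6 and 8 the counts were 1 elastic fiber, 0 basement membrane, 4 serine protease, 1 eye size and 1 TGF-beta gene. Without the count filter, 0 basement membrane genes were called, and with at least 10 counts in every library 1 eye size gene was. With 1 mouse left out, the counts were 0 to 1 elastic fiber, 0 to 1 basement membrane, 1 to 3 metalloproteinase, 1 to 4 serine protease, 2 to 8 dystrophy, 0 to 2 eye size and 1 to 2 TGF-beta genes. Estimates that changed sign were *C1qtnf5* (0.29 with the photoreceptor and 0.19 with the RPE covariate), *Fbln5* (0.07) and *Eln* (-0.40) with the RPE covariate, *Prph2* (0.60) and *Bmp4* (0.00) with the photoreceptor covariate, and *Mfrp* (0.35) and *Mmp14* (0.06) without mice 6 and 8. With 1 mouse left out, *Mfrp* ranged from -0.24 to 0.19 (above 0 without mouse 1, 6 or 8) and *Loxl1* from -0.22 to 0.05 (above 0 without mouse 1 or 5). In the order per kilobase, 5 of 9 neighbor pairs passed with each mouse left out, but not the same pairs: without mouse 3 or 5, *C1qtnf5* was next to *Fbln5*, and without mouse 9, *Htra1* was next to *Mmp14*. Per longest transcript, 5 pairs passed too, *Htra1* had rank 2 and *Mmp14* rank 5, *Mfrp* over *Eln* did not pass, and *Mmp14* over *Fbln5* did. Low counts limit *Lox*.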
